A study of Mus musculus with 14 samples.

Results

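Hormone-sensing luminal cells of the mammary duct were followed through 9 genes, which are the receptors Esr1, Pgr and Prlr, the estrogen target Greb1, the transcriptional regulators Foxa1, Gata3, Tbx3 and Cited1, and the surface marker Prom1. They were picked out by gene symbol, with earlier results of these data known, and all 9 were found among the 16124 genes measured. RNA-seq was done on freshly isolated mammary epithelial cells (MECs) of 14 virgin (nulliparous) female mice aged 3.5 months, as 7 littermate pairs (pairs 1, 3, 4, 5, 6, 7 and 8) of 1 wild-type (WT) and 1 Usp22 OE/OE (OE) mouse. The OE mice carried a knock-in at ROSA26 on both alleles, a FLAG- and MYC-tagged mouse Usp22 cDNA behind the CAGGS promoter. Its stop cassette had been removed with Zp3-Cre, which acts in the oocyte, so that every tissue of the mouse, and not only the mammary epithelium, expressed the transgene. Glands 2, 3 and 4 of both sides were digested, organoids were separated from stroma by pulse centrifugation and dissociated with trypsin, and each library came from 1 mouse.

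In the adult duct, estrogen and progesterone act on a minority of luminal cells that hold their receptors, and these cells pass the signal to their neighbours through secreted factors. Estrogen receptor alpha works with the pioneer factor FOXA1 and with GATA3 and induces Pgr and Greb1, whereas the prolactin receptor signals through JAK2 and STAT5. The same cells are recognised by PROM1 on their surface and by the coregulator CITED1 in the nucleus.

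The transgene was read out in every OE mouse. Usp22 lay between 3500.0 and 5380 normalized counts in WT mice and between 74948 and 144288 in OE mice, a log2 fold change of 4.65 ± 0.11 (SE, limma, adjusted p = 4.7e-08), higher in 7 of 7 pairs. Reads from the transgene and from the native gene cannot be told apart here. Depth ran from 20125106 to 41835978 fragments per library. The luminal keratins Krt8 (99133 to 180962 normalized counts over the 14 mice) and Krt18 (53879 to 114766) and the basal keratins Krt5 (7093 to 23279) and Krt14 (20087 to 68596) were present in all libraries, so both epithelial lineages were sampled. These are bulk samples, in which fewer hormone-sensing cells and less RNA of a gene per cell cannot be told apart. Littermates were alike across genes to different degrees. The deviations of a WT mouse and its OE littermate from their group means correlated, over 13230 genes with a mean of at least 50 normalized counts, from 0.203 in pair 1 and 0.297 in pair 4 to 0.837 in pair 7. The WT mouse of pair 1 was more like the OE mouse of pair 4 (0.567) and that of pair 4 more like the OE mouse of pair 3 (0.418), so the change of each member is also given without both pairs.

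No member passed the test between genotypes. Most of the members' spread between mice lay between litters (median share 81.2%), as it did over all genes (median 73.9%). At an unadjusted p of 0.05 or less (limma on log2 normalized counts with the littermate pair as a block), 0 of the 9 genes differed, against 614 of all 16124 genes, or 3.81%. At an adjusted p under 0.05 the count was 0 of 9, against 2 genes (0.0124%), and 0 of 9 moved the same way in all 7 pairs, against 243 genes (1.51%). Other tools gave 0 of 9 (edgeR) and 1 of 9 (DESeq2, Greb1) at the unadjusted threshold. The median log2 fold change of the members was 0.081, beside -0.0015 over all genes. At that background fewer than 1 of 9 genes would be called, so a count of 0 is near the background.

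**Figure D1:**
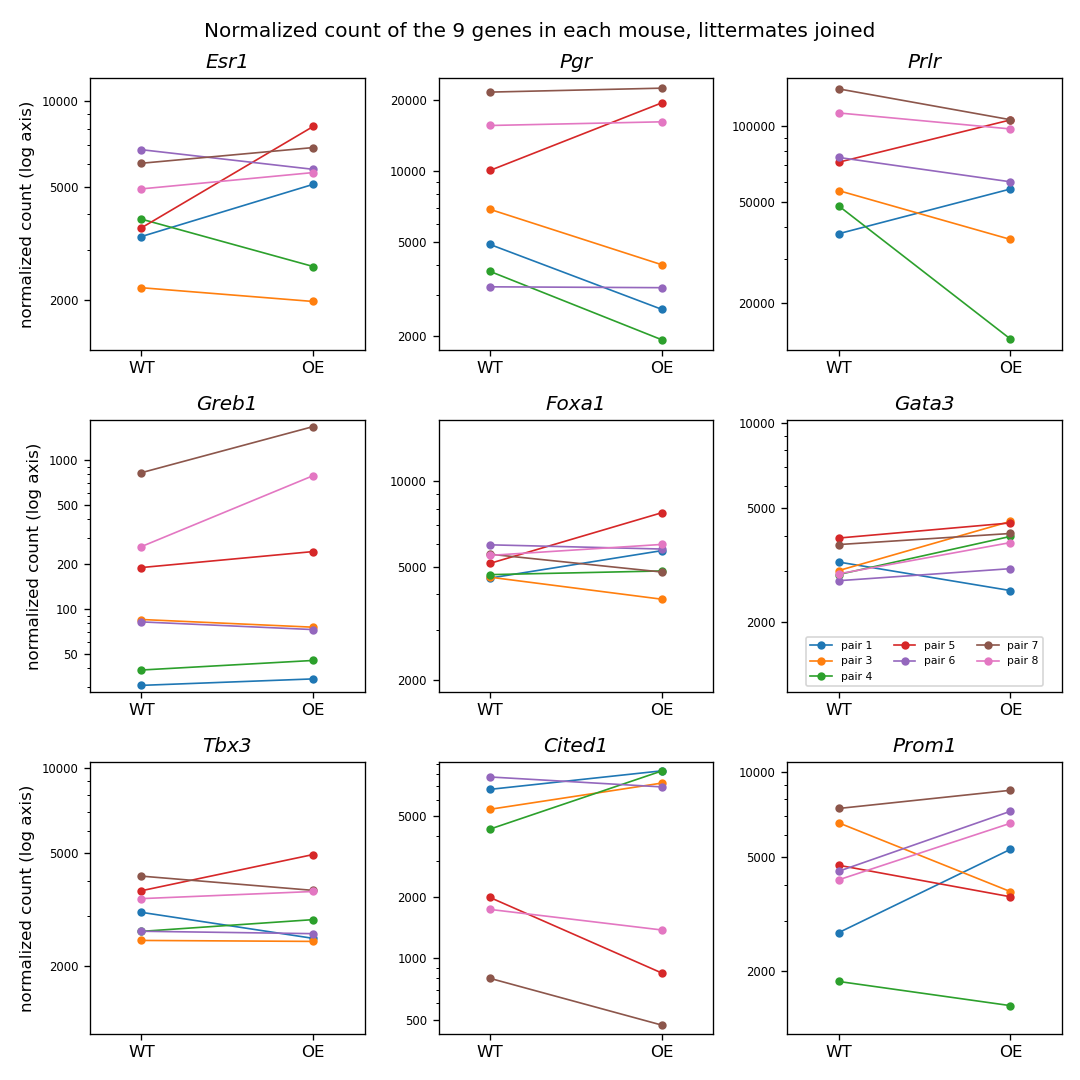
Normalized count of each of the 9 genes (log axis; one panel per gene, all panels span at least 9-fold) in the WT and the OE mouse of each of the 7 littermate pairs, joined by a line. The lines are steep in both directions for Prlr and Prom1, nearly level for Tbx3, and far apart between litters for Greb1, Pgr and Cited1.

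Greb1 (chr12:16670615-16800886, minus strand, mm10 and GENCODE M21 as for all genes below), an estrogen-induced cofactor of the estrogen receptor, differed more between litters than any other member. In WT mice it read 30.7 normalized counts in pair 1, 84.9 in pair 3, 38.9 in pair 4, 190 in pair 5, 81.8 in pair 6, 822 in pair 7 and 262 in pair 8. In the OE littermates it read 33.9, 75.4, 45.1, 243, 72.6, 1676 and 785 in the same order. Both mice of pairs 5, 7 and 8 were above all mice of the other pairs (190 to 1676 against 30.7 to 84.9), whatever the genotype, and the highest mouse had 54.7 times the value of the lowest. This split of litters was read from the values, and how many of all genes share it was not computed. The lowest value rested on 18 fragments in the shallowest library. Of the spread of log2 Greb1 over the 14 mice, 95.7% lay between litters, 1.42% between genotypes and 2.85% within pairs after the genotype mean. Over all genes the median share between litters was 73.9%, and 1.53% of genes had a higher share than Greb1. Litters hold 6 of the 13 degrees of freedom, so these shares are descriptions and were not tested.

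Within pairs, Greb1 was higher in the OE mouse in 5 of 7 pairs, with log2 ratios of 1.58 in pair 8 and 1.03 in pair 7, and the remaining pairs lay from -0.17 to 0.35. The mean was 0.42 ± 0.22 (SE, limma, p = 0.084, adjusted p = 1.00), with a 95% interval of -0.069 to 0.92, and exact sign flips of the pair ratios gave p = 0.13 (two-sided; the smallest p that 7 pairs allow is 0.0156). It passed the unadjusted threshold in DESeq2 (log2 fold change 0.46, adjusted p = 1.00) and with the pan-luminal marker score as a covariate beside the pair (0.78, limma adjusted p = 0.96), and in none of the other settings run. Its mean leaned on pairs 7 and 8, the litters in which its level was highest, and was 0.32 without pair 7, 0.23 without pair 8 and 0.52 without pairs 1 and 4.

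The progesterone receptor gene Pgr (chr9:8899833-8968611, plus strand), itself an estrogen target, followed the same litters. WT mice ran from 3240 to 21707 normalized counts (median 6905) and OE mice from 1932 to 22560 (median 4020). In pairs 5, 7 and 8 the mice held 10102 to 22560, and in pairs 1, 3, 4 and 6 they held 1932 to 6905, whatever the genotype. This split was taken from the Greb1 values, and the share of all genes that show it was not computed. The litter share was 92.0%. The within-pair ratio was negative in 4 of 7 pairs, from -0.96 in pair 4, -0.91 in pair 1 and -0.78 in pair 3 to 0.95 in pair 5, and lay within 0.06 of 0 in pairs 6, 7 and 8. The mean was -0.23 ± 0.22 (SE, limma, p = 0.32; exact sign-flip p = 0.58; 95% interval -0.72 to 0.26). Pair 5 decided its side of the threshold, since without it Pgr was lower in OE mice by a log2 fold change of -0.43, past the unadjusted threshold (limma adjusted p = 1.00), while without pairs 1 and 4 the value was 0.053 (adjusted p = 0.93).

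Cited1 (chrX:102247381-102252181, minus strand), a coregulator that binds CBP and p300, ran in the opposite order of litters. Its WT values ran from 797 to 7776 normalized counts (median 4314) and its OE values from 470 to 8336 (median 6949). Both mice of pairs 5, 7 and 8 were low (470 to 1990), and all mice of the other pairs were high (4314 to 8336). For this split too, no share of all genes was computed. The litter share was 93.9%, and the highest mouse exceeded the lowest 17.7-fold. Its within-pair ratio was positive in pairs 1, 3 and 4 (0.30, 0.43 and 0.95) and negative in pairs 5, 6, 7 and 8 (-1.23, -0.16, -0.76 and -0.34). The mean was -0.12 ± 0.23 (SE, limma, p = 0.63; exact sign-flip p = 0.69), and its sign turned when pair 5 was left out (0.070). Without pairs 1 and 4 it was -0.41 (limma adjusted p = 0.48).

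**Figure D2:**
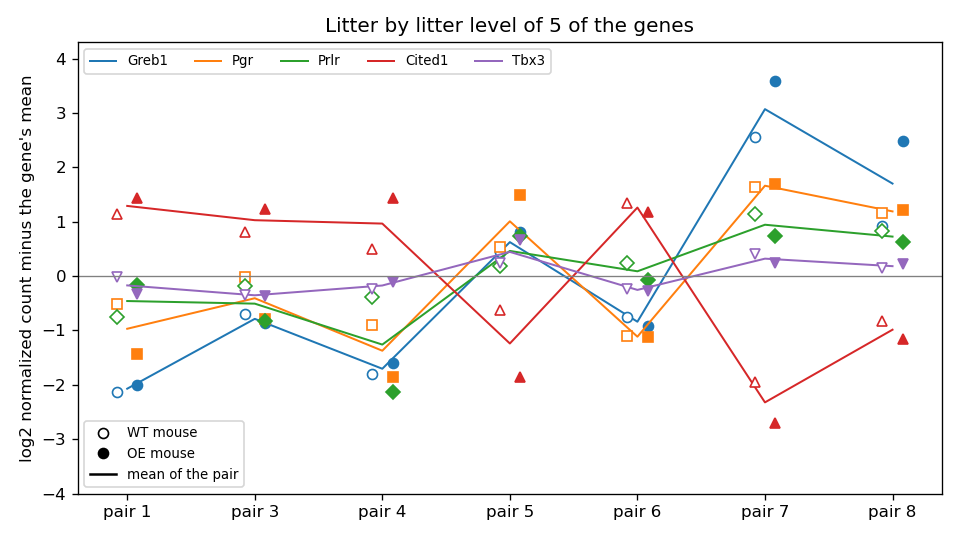
Level of Greb1, Pgr, Prlr, Cited1 and Tbx3 in each littermate pair, as log2(normalized count + 1) minus the mean of the gene over the 14 mice (open symbols WT, filled symbols OE, lines the mean of the pair). Greb1, Pgr, Prlr and Tbx3 are highest in pairs 5, 7 and 8, where Cited1 is lowest; Greb1 spans 5.14 log2 units between the highest and lowest pair mean and Tbx3 spans 0.80.

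The starts of Greb1, Pgr, Cited1 and Prlr are shown with matches to motifs of the estrogen receptor, STAT, forkhead factors and steroid receptors. No link between these motifs and the litter order was tested. Sequences are 250 bases upstream of a start (RefSeq, GRCm38.p6), 5′ to 3′ on the strand of the gene, with motif matches in capitals. Capitals mark the receptor half-site AGGTCA in Greb1 and Cited1 (read as TGACCT, its reverse complement) and, in Prlr, the forkhead motif TGTTTAC, the STAT motif TTCNNNGAA and the steroid receptor half-site AGAACA (read as TGTTCT). Of several starts for Greb1, Cited1 and Prlr the one with a match is shown, and Pgr has 1 start and no match.
Greb1, chr12:16800887-16801136, minus strand: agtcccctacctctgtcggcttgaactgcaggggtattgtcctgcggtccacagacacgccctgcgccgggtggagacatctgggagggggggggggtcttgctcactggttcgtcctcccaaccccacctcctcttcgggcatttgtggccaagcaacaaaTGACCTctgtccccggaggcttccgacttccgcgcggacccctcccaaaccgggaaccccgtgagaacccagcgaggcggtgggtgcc
Pgr, chr9:8899583-8899832, plus strand: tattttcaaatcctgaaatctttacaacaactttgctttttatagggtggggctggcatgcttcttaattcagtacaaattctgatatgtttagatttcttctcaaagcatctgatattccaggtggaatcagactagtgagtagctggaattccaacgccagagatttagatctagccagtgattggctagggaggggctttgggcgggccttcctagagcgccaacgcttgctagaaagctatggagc
Cited1, chrX:102250777-102251026, minus strand: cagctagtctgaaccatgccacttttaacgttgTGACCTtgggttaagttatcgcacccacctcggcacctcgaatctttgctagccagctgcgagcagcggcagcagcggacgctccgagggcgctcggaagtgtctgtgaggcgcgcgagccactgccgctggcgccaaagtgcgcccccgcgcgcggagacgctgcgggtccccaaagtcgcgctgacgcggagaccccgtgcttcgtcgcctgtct
Prlr, chr15:10223656-10223905, plus strand: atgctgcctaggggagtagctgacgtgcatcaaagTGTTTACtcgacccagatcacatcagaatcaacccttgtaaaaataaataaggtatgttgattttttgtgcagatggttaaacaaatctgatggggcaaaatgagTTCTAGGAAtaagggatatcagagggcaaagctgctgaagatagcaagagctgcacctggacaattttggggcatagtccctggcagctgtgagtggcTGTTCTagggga
The Greb1 half-site lies 88 to 83 bases before the start and that of Cited1 217 to 212 bases before it. Of all 32851 promoter windows of this length in the table, 14.02% hold this half-site on either strand, and among the 15 windows of 8 members (Tbx3 is not in the table) it was found in 2. The full palindrome of 2 such half-sites spaced by 3 bases was in 0 of the 15 windows and in 0.0213% of all. The STAT motif (7.02% of all windows) was in Prlr and in 1 of the Esr1 windows, the forkhead motif (3.17%) in Prlr and Foxa1, and the steroid receptor half-site (16.1%) in Prlr and Prom1. A match says only that these letters are present in the window.

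The estrogen receptor gene Esr1 (chr10:4611593-5005614, plus strand) varied less than Greb1 and Pgr, with an SD of log2 values over the 14 mice of 0.64 against 1.85 and 1.26. It read 2206 to 6751 normalized counts in WT mice (median 3845) and 1973 to 8150 in OE mice (median 5608). Both mice of pair 3 were lowest (2206 and 1973), and the OE mouse of pair 5 was highest (8150, against 3584 in its WT littermate). The genotypes overlapped over nearly the whole range. Its within-pair ratio was positive in 4 of 7 pairs, from -0.55 in pair 4 to 1.19 in pair 5, with a mean of 0.18 ± 0.18 (SE, limma, p = 0.36; exact sign-flip p = 0.47; 95% interval -0.24 to 0.59). Most of that mean came from pair 5, without which it was 0.0067. It was 0.021 with the pan-luminal score as a covariate and 0.23 without pairs 1 and 4. The order of litters for Esr1 was not that of Greb1, since pair 6 was the second highest for Esr1 (6751 and 5757) and low for Greb1 (81.8 and 72.6).

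The prolactin receptor gene Prlr (chr15:10177238-10349180, plus strand) had the highest WT median of the members per kb of exon. In normalized counts, WT mice held 37581 to 140190 normalized counts (median 71982) and OE mice 14429 to 105924 (median 60247). The lowest mouse by far was the OE mouse of pair 4, at 14429 against 48410 in its WT littermate, and the highest was the WT mouse of pair 7. Prlr was lower in the OE mouse in 5 of 7 pairs, with log2 ratios from -1.75 in pair 4 to -0.21 in pair 8, and higher in pairs 1 and 5 (0.59 and 0.55). The mean was -0.31 ± 0.26 (SE, limma, p = 0.25; exact sign-flip p = 0.36; 95% interval -0.89 to 0.26). Without pair 4 it was -0.072, without pair 1 -0.46 and without both -0.20 (limma adjusted p = 0.69), and with the fibroblast or the adipocyte marker score as a covariate its sign turned (0.044 and 0.39, with no call in either).

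The luminal transcription factors were the steadiest members. Gata3 (chr2:9857078-9890034, minus strand), which maintains luminal identity, read 2784 to 3934 normalized counts in WT mice (median 3022) and 2570 to 4504 in OE mice (median 3987). It was higher in the OE mouse in 6 of 7 pairs, and lower in pair 1 (log2 ratio -0.33). Over all genes 14.1% moved one way in at least 6 pairs. The mean was 0.21 ± 0.10 (SE, limma, p = 0.067, adjusted p = 1.00; exact sign-flip p = 0.13; 95% interval -0.018 to 0.45). Pair 1 decided the call. Without it Gata3 was higher by 0.31 and passed the unadjusted threshold (limma adjusted p = 0.65), as it did without pairs 1 and 4 (0.28, adjusted p = 0.39; 11.2% of all genes were called there, and 7.42% without pair 1), with each library centred on its median (0.23, adjusted p = 1.00) and with the pan-luminal score as a covariate (0.30, adjusted p = 0.96). Over all settings its log2 fold change ran down to -0.023, with the adipocyte score. The WT mouse of pair 1 also stood apart in lymphocyte markers, with a list mean of 7.17 on the log2 scale against 3.47 to 5.31 in the other 13 mice, and their part in the call was not tested. Its genotype share of the spread, 17.7%, was the highest of the members, whose median was 1.42%, beside 1.43% over all genes. An RNA that overlaps Gata3 exons on the same strand, 9230102O04Rik, held 9.15 to 69.9 normalized counts and a log2 ratio of -0.016 between genotypes. How many reads fell in the shared bases is not known from the table.

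Foxa1 (chr12:57540628-57546916, minus strand), whose protein opens chromatin for the estrogen receptor, lay between 4559 and 5969 normalized counts in WT mice (median 5137) and between 3841 and 7743 in OE mice (median 5695). The lowest and the highest mouse were both OE, of pairs 3 and 5. Its mean log2 fold change was 0.081 ± 0.11 (SE, limma, p = 0.46; exact sign-flip p = 0.53), positive in 4 of 7 pairs, and the 95% interval of -0.16 to 0.32 sets a narrow limit to the difference at this number of mice. Without pair 5 the value was -0.0038, and without pairs 1 and 4 it was 0.041.

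Tbx3 (chr5:119670669-119684724, plus strand), a T-box factor of the early mammary bud and of hormone-sensing cells, was the member with the smallest mean change. It ran from 2468 to 4157 normalized counts in WT mice (median 3099) and from 2449 to 4951 in OE mice (median 2921). Its within-pair ratios lay between -0.30 and 0.42, with a mean of 0.019 ± 0.088 (SE, limma, p = 0.83; exact sign-flip p = 0.83; 95% interval -0.18 to 0.22), and it was 0.060 without pairs 1 and 4. Its litter share was nonetheless 87.7%, with both mice of pairs 5, 7 and 8 at 3463 to 4951 and all mice of the other pairs at 2449 to 3099. How many of all genes split the litters in this way was not computed. Tbx3os1, transcribed from the opposite strand and overlapping the start of Tbx3, held 17.0 to 56.1 normalized counts. Whether the counting used strand is not given in the sources used here, so the small number of reads from this region cannot be assigned.

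Prom1 (chr5:43993620-44102032, minus strand), which encodes the membrane protein CD133, varied both between and within litters. WT mice held 1831 to 7438 normalized counts (median 4472) and OE mice 1505 to 8618 (median 5342). The lowest mice were both of pair 4 (1831 and 1505) and the highest both of pair 7 (7438 and 8618). The within-pair ratio ran from -0.80 in pair 3 to 0.97 in pair 1, with 4 of 7 positive and a mean of 0.16 ± 0.21 (SE, limma, p = 0.47; exact sign-flip p = 0.53; 95% interval -0.31 to 0.62). Single pairs moved it from 0.020 (without pair 1) to 0.32 (without pair 3), and it was 0.081 without pairs 1 and 4. With the fibroblast score as a covariate the value was 0.52, past the unadjusted threshold (limma adjusted p = 0.97).

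**Figure D3:**
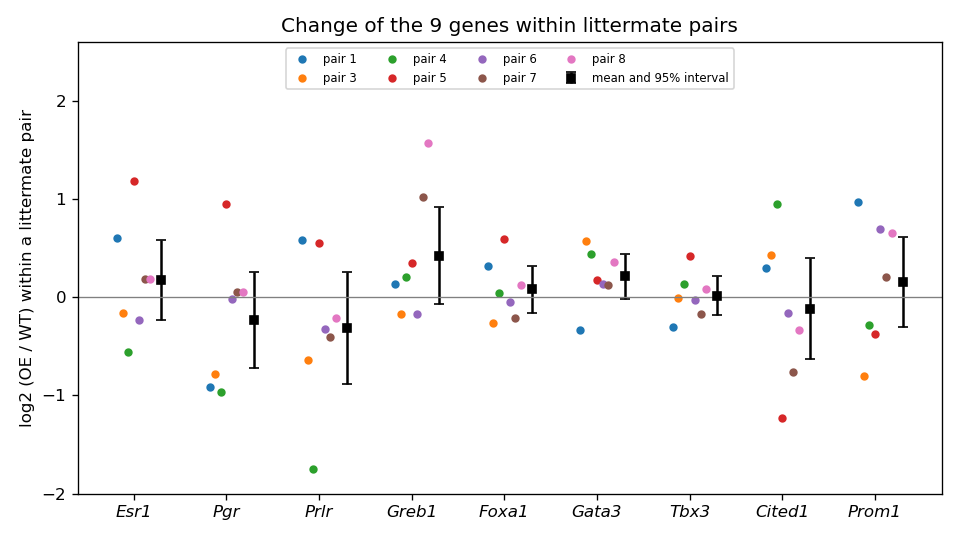
Within-pair log2 ratio of OE over WT for each of the 9 genes, with the 7 pairs as coloured points and the limma mean with its 95% interval as a black square and bar. All 9 intervals include 0, that of Gata3 by the least (-0.018 to 0.45), and the pairs spread widest for Prlr, Cited1 and Pgr.

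The members did not move as a unit within a pair. In pairs 5 and 8, 7 of 9 were higher in the OE mouse, and in pairs 3 and 6, 7 of 9 were lower. The median absolute log2 ratio over the 9 genes was smallest in pair 6 (0.16) and largest in pair 5 (0.55). For all 9 genes the median absolute difference between littermates was smaller than that between a WT mouse and the OE mice of other litters. For Greb1 these were 0.21 and 1.94 log2 units, for Cited1 0.43 and 1.98, and for Gata3 0.33 and 0.35, which were nearly equal. The share of all genes with a smaller difference between littermates was not computed, so the count of 9 is not shown to be particular to these genes. The median litter share of the members was 81.2%, and 7 of 9 lay above the median of all genes (73.9%). The SD of log2 values over the 14 mice had a median of 0.76 for the members and 0.41 for all genes. The litter order of Greb1, Pgr, Prlr, Tbx3 and Cited1 was read from the values themselves and was not tested. No share of all genes that separate the same litters stands beside it.

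Per kb of exon, the WT medians fell from Prlr (4693 normalized counts per kb) through Cited1 (2459), Foxa1 (1544), Pgr (808), Gata3 (760), Prom1 (623), Tbx3 (468) and Esr1 (281) to Greb1 (8.86). Of the 8 steps in this order, 2 passed an exact sign-flip test of the within-mouse log2 ratios over the 7 WT mice (p of 0.05 or less). Tbx3 was above Esr1 in 6 of 7 mice (exact sign-flip p = 0.031), and Esr1 was above Greb1 in 7 of 7 (p = 0.016, the smallest possible), by 4.60 log2 units on average. The exact p of the step from Tbx3 to Esr1 was 0.0625 when the WT mouse of any pair but 6 was left out, and the step depended on the length used. With the longest transcript of each gene in place of all its exons, the medians were 622 and 607 normalized counts per kb, Tbx3 was above Esr1 in 3 of 7 mice (mean log2 ratio -0.056, exact sign-flip p = 0.81), and Prom1 above Tbx3 passed instead (6 of 7 mice, p = 0.047). The step from Esr1 to Greb1 kept 7 of 7 mice. By the same exact test, the steps from Prlr to Cited1 (p = 0.13), Cited1 to Foxa1 (p = 0.61), Foxa1 to Pgr (p = 0.094), Pgr to Gata3 (p = 0.67), Gata3 to Prom1 (p = 0.11) and Prom1 to Tbx3 (p = 0.30) did not pass, which does not show these levels to be equal. Without the WT mouse of pair 1, Prlr was above Cited1 in 6 of 6 mice (exact sign-flip p = 0.031). In OE mice the medians per kb put Cited1 (3962) level with Prlr (3928), and Pgr (470) dropped below Gata3 (1002) and Prom1 (745). Isoforms of very different length, as for Esr1 and Prlr, share 1 exon length here.

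**Figure D4:**
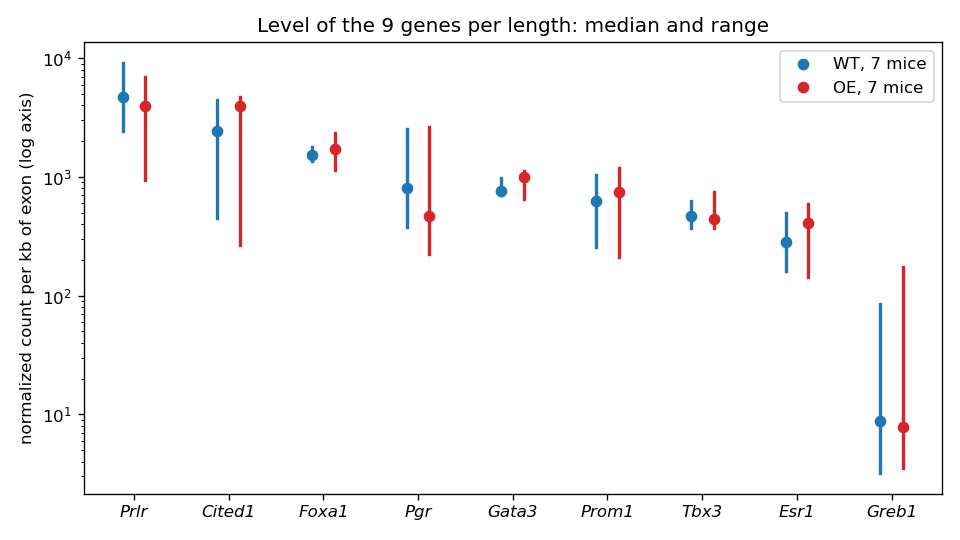
Normalized count per kb of exon (log axis) of the 9 genes in order of their WT medians, with the median as a point and the lowest to highest mouse as a bar (blue WT, red OE, 7 mice each). Neighbouring bars overlap from Prlr to Esr1. Greb1, at a WT median of 8.86, stands apart in WT (up to 85.8, against 161 or more for Esr1). Its OE bar reaches 175 and overlaps that of Esr1, which starts at 144.

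Some genes followed single members closely over the 14 libraries, which come from 7 litters and share 1 normalization, so the correlations below are descriptions. For Pgr the closest gene was Gm16485 (Pearson r = 0.994), which lies on the same strand of chromosome 9 and begins 3179 bases beyond the annotated end of Pgr. It held 398 to 4557 normalized counts, and whether its reads belong to transcripts of Pgr was not tested. Greb1 was best matched by Trabd2b (r = 0.977), whose product cleaves Wnt proteins, Cited1 by Apof (0.966), a secreted apolipoprotein, and Prlr by Eps8 (0.978), an actin regulator downstream of growth factor receptors. The best matches of the other members were Ibtk for Tbx3 (0.972), Cwc25 for Esr1 (0.942), Nt5dc3 for Gata3 (0.931), Eppk1 for Foxa1 (0.900) and Pdgfrb, a receptor of pericytes and fibroblasts, for Prom1 (0.872). The mean z score of the 9 members ran from -0.79 in the OE mouse of pair 4 to 0.89 in that of pair 5. The 10 genes closest to it (r from 0.978 to 0.989) were Mbtps2, Tnks, Fam120a, Heatr5a, Dennd4c, Atf7ip, Prdm10, Nr2c2, Lrrc8b and Zfhx3, among them none of the genes in the hormone lists below. The listed estrogen receptor cofactors, as a mean on the log2 scale, held 12.32 to 12.92 in pairs 5, 7 and 8 and 11.96 to 12.33 in the other pairs. These ranges just met. Other lists overlapped more between the same litters. The estrogen-responsive mean was 10.88 to 11.13 against 10.69 to 10.98. The progesterone-responsive mean was 9.65 to 10.36 against 9.39 to 11.30, and the prolactin pathway mean 11.19 to 11.39 against 10.61 to 11.51. The likeness was not tested.

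Genes that act with or after the receptors were called between genotypes about as rarely as genes at large. Of 29 estrogen-responsive genes measured, 0 were higher and 1 was lower at an unadjusted p of 0.05 or less (limma), with a median log2 fold change of -0.020. The gene that fell was Ret, a receptor tyrosine kinase induced by estrogen, with a mean of 716 normalized counts in WT and 551 in OE mice (log2 fold change -0.49 ± 0.21, SE, limma adjusted p = 1.00), lower in 5 of 7 pairs. Areg, the EGF receptor ligand through which estrogen drives ductal growth, read 9082 to 24452 normalized counts in WT mice and 5857 to 30826 in OE mice, with a log2 fold change of -0.25 ± 0.17 (SE, limma; exact sign-flip p = 0.25).

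Of 9 progesterone-responsive genes, 0 passed the test in either direction, and their median log2 fold change was 0.21. Wnt4, a progesterone-induced Wnt ligand, was at 3078 to 7082 normalized counts in WT and 3507 to 4704 in OE mice (log2 fold change -0.10 ± 0.15, SE, limma; exact sign-flip p = 0.59). Tnfsf11 (RANK ligand), the paracrine factor through which progesterone drives proliferation, read 11.4 to 62.6 normalized counts in 13 mice and 712 in the OE mouse of pair 4. Calca, the calcitonin gene and a progesterone target that was chosen here after its values were seen, also peaked in that mouse at 12492 normalized counts, against 13.3 in its WT littermate. It was next highest in both mice of pair 3 (749 in WT and 1452 in OE) and in the WT mouse of pair 1 (627). Of the 9 listed progesterone-responsive genes, 3 were highest of the 14 mice in the OE mouse of pair 4 (Tnfsf11, Calca and Adamts18, the last 1021 normalized counts) and 2 were lowest (Klf9 at 1721 and Errfi1 at 24607). Wnt4 was below its WT littermate (4129 against 7082). In the same mouse Pgr (1932), Prlr (14429) and Prom1 (1505) were at the lowest values of all 14 mice. Adamts18, Klf9 and Errfi1 were named after their values were seen. The proliferation markers were also highest in that mouse (list mean 10.0 on the log2 scale, against 4.19 to 9.06 in the other 13), and the fibroblast, adipocyte and endothelial lists were lowest there (10.9, 6.23 and 10.5). The part of these lists in its hormone receptor values was not tested.

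Downstream of Prlr, 0 of 9 prolactin pathway genes passed the test (median log2 fold change -0.020). Elf5, a STAT5 partner in alveolar cells, was at 864 to 2295 normalized counts in WT and 1019 to 2937 in OE mice (log2 fold change 0.14 ± 0.18, SE, limma; exact sign-flip p = 0.50). Of 25 cofactors and chromatin partners of the estrogen receptor, 0 passed, with log2 fold changes between -0.061 and 0.24 and a median of 0.088. Of 16 other hormone receptors 1 was higher, the thyroid hormone receptor gene Thrb, with means of 204 and 256 normalized counts in WT and OE mice (log2 fold change 0.30 ± 0.12, SE, limma adjusted p = 1.00), higher in 6 of 7 pairs. None of these genes passed at an adjusted p under 0.05.

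**Figure D5:**
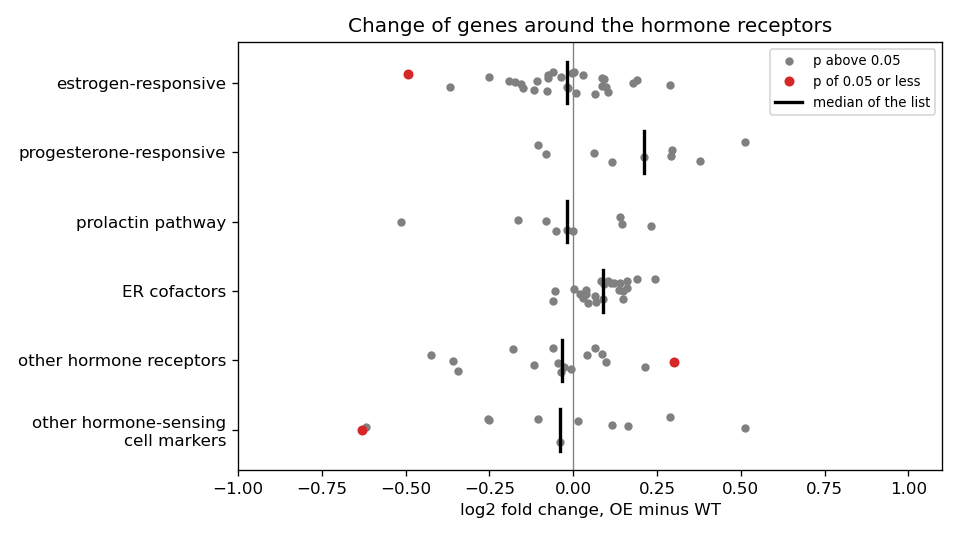
Log2 fold change (OE minus WT) of each gene in 5 hormone pathway lists and of 11 other markers of hormone-sensing cells, one point per gene, red where the unadjusted limma p was 0.05 or less, with the median of each list as a black line. Of 99 points (91 distinct genes, since some stand in more than 1 list) 3 are red (Ret, Thrb and Cxcl15), and the list medians lie between -0.038 and 0.21.

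Other markers of hormone-sensing cells, and markers of the remaining cell types, set the frame for these values. Single genes of these lists were called higher or lower at the unadjusted threshold (limma). None of them passed that threshold after adjustment over all genes. Of 11 further hormone-sensing markers 0 were higher and 1 was lower, Cxcl15, a secreted chemokine (log2 fold change -0.63 ± 0.27, SE, limma adjusted p = 1.00, lower in 6 of 7 pairs). The mean log2 level of that list ran from 9.67 to 10.4 in WT and from 9.61 to 10.9 in OE mice and was higher in the OE mouse in 3 of 7 pairs, so the groups overlapped. The luminal progenitor markers Kit (4275 to 7059 normalized counts in WT, 5593 to 7901 in OE) and Elf5 did not pass the test, and of that list of 10 only Aldh1a3 was lower (-0.46 ± 0.13, SE, limma). Of 8 pan-luminal genes 2 were higher, Cldn7 and Elf3 (0.35 and 0.43). Of 10 adipocyte markers 5 were lower (Plin1, Adipoq, Cfd, Cidec and Retn, log2 fold changes from -1.17 to -1.33), and the mean log2 level of the list ran from 6.74 to 8.43 in WT and 6.23 to 7.90 in OE mice, lower in 6 of 7 pairs. Of 10 fibroblast markers 3 were lower (Lum, Pdgfra and Fbn1), with a list mean of 11.95 to 13.05 in WT and 10.9 to 12.7 in OE mice, lower in 5 of 7 pairs. Of 10 basal markers 0 passed, nor did any of 10 endothelial, 10 macrophage, 8 lymphocyte, 10 proliferation or 10 skeletal muscle markers, and 1 of 10 Schwann cell markers was higher (Ncam1). No adipocyte, fibroblast or epithelial marker on these lists was at 0 in any library. Genes of these other lists were named after their values were seen, and the part of the adipocyte and fibroblast genes in the changes of the 9 members was not tested beyond the covariate fits given with Prlr, Prom1 and, for Esr1, a log2 fold change of 0.58 with the adipocyte score, past the unadjusted threshold (limma adjusted p = 0.17).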

How the data were processed

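Polyadenylated RNA of 14 mice was sequenced in paired reads. Alignment to mm10 was done by the authors with TopHat2 2.0.10 and counting of fragments over GENCODE M21 genes with HTSeq 0.6.0 (versions as in the submitters' processing notes). Genes had to reach 10 fragments in 7 or more of the libraries, and DESeq 1.18.0 size factors scaled the libraries. The deposited table thus holds a signal on a linear scale, the normalized count. In every library 100% of values were whole multiples of 1 step (tolerance 0.01), which gave the fragments used for depth and for edgeR 4.0.16 and DESeq2 1.42.0. Depth sets the counting error of low values, such as the lowest of Greb1.

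Genotypes were compared with limma 3.58.1 in R 4.3.3 (lmFit, then eBayes with trend). Values entered as log2(normalized count + 1), a scale on which fold changes of low genes are understated. The littermate pair was a block, the threshold was 0.05 on the unadjusted p as in the study, and Benjamini-Hochberg adjustment over all genes stands beside it. This replaced the study's per-gene paired test, kept as an alternative. Single genes were tested with exact sign flips over the 7 pairs (128 patterns, two-sided), using Python 3.11.15 and scipy 1.17.1. Littermates share a pair number in the sample labels, and the study's methods match them. Their deviations correlated by 0.203 to 0.837, and 5 of 7 WT mice were most like their own littermate. Named genes are the 9 members, Usp22, the 10 genes most like the members' mean z score and the best match of each member (mean of at least 50 normalized counts), pathway genes with p of 0.05 or less (the 5 smallest where more), and Areg, Wnt4, Tnfsf11, Krt8, Krt18, Krt5, Krt14, Kit and Elf5. The members and lists were chosen with earlier results of these data known. Of the lists, 29 of 33 estrogen-responsive entries, 9 of 11 prolactin pathway genes, 16 of 17 other receptors and 8 of 10 lymphocyte genes were measured, and all of the others. Exon lengths come from GENCODE M21, and promoters from RefSeq. Pseudocounts of 0.1 and 10, a minimum mean of 50, other tools, scalings and covariates and each pair left out were tried.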

Additional observations from a re-analysis of the deposited data

Results flagged for a closer look

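Among the 18 sets of 7 mice formed by the 9 genes and both genotypes, 1 held a mouse far from the others. Greb1 in the WT mouse of pair 7 read 822 normalized counts, against 262 in the next highest WT mouse. On the linear scale of counts this was a gap of 0.707 of the whole WT range, above Dixon's 95% critical value for 7 values. The gap on the log2 scale, which the genotype tests used, was not computed. Chance flags about 1 in 20 such groups, or 0.9 of 18. The OE littermate of this mouse was the highest OE mouse for Greb1 (1676 normalized counts).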

How the results depend on the processing

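Over all genes, the number past the unadjusted threshold moved from 614 to 182 without the pair as a block, to 3073 with the adipocyte score as a covariate, and to between 381 (without pair 6) and 1366 (without pair 4) with 1 pair left out. It was 1196 without pair 1. It was 1805 without pairs 1 and 4, an alternative chosen after seeing the data. The count of members called moved from 0 to 1 with centred libraries (Gata3; 3.91% of all genes called there), with the fibroblast score (Prom1; 3.01%), with the adipocyte score (Esr1; 19.1%), with DESeq2 (Greb1; 3.88%) and without pairs 1 and 4 (Gata3; 11.2%), to 2 with the pan-luminal score (Gata3 and Greb1; 3.71%), and to between 0 and 1 with 1 pair left out (2.36% to 8.47%). It stayed at 0 without the pair as a block (1.13%), a fit that cannot alter the fold changes in this balanced design. The order per kb had 2 steps that passed the exact sign-flip test. With 1 WT mouse left out between 1 and 2 passed, where 6 mice allow fewer sign patterns. Leaving out any WT mouse but that of pair 6 lost the step from Tbx3 to Esr1, and without that of pair 1 the step from Prlr to Cited1 passed. In OE mice the same 2 steps passed. With the longest transcript as length 2 passed, but Tbx3 to Esr1 was replaced by Prom1 to Tbx3. Signs reversed for Prlr (fibroblast score 0.044, adipocyte score 0.39), Gata3 (adipocyte score -0.023), Tbx3 (fibroblast score -0.083, adipocyte score -0.090, without pair 4 -0.00065, without pair 5 -0.048, up to 0.073 with another pair left out), Foxa1 (without pair 5 -0.0038, up to 0.14), Cited1 (without pair 5 0.070, down to -0.29) and Pgr (without pairs 1 and 4 0.053). The cause was not tested. Of 117 member values under the settings that kept 7 pairs or left out both of pairs 1 and 4, 104 kept their sign and side of the threshold, and of 63 with 1 pair left out, 57 did. With 7 pairs, the 95% intervals leave room for upward changes of 0.22 (Tbx3) to 0.92 (Greb1) on the log2 scale. Downward they reach from -0.018 (Gata3) to -0.89 (Prlr).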

Other observations

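Keratins of the cornified epidermis, which are markers of skin and not of ducts, stood high in 3 libraries. Krt10 read 1864 normalized counts in the WT mouse of pair 1, 1226 in the OE mouse of pair 6 and 2700 in the OE mouse of pair 8, against 22.7 to 97.0 in the other 11 mice. Krt1 read 346, 833 and 2198 in the same mice, against 8.16 to 29.2 in the others. The 9 hormone-sensing genes were not extreme as a group in these 3 mice, with mean z scores of -0.49, -0.0016 and 0.62. Both keratins were chosen after their values were seen, and their part in any result was not tested.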
